A study of Mus musculus with 6 samples.

Results

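The miR-181 family, 4 mature microRNAs (miRNAs) named mmu-miR-181a-5p, mmu-miR-181b-5p, mmu-miR-181c-5p and mmu-miR-181d-5p, was measured in mouse lung with and without bleomycin (BLM), a cytotoxic agent whose lung injury leads to fibrosis. The members were taken by name and are 4 of the 1963 mouse miRNA probes on the array. Whole lung came from wild-type C57Bl6 mice aged 8 to 10 weeks, which carried no transgene: 3 untreated WT mice that received saline and 3 WT-BLM mice that received BLM at 1.5 U/kg into the trachea, all killed at day 21. Each mouse had 1 array of its own, stained with 1 dye. The comparison asked which miRNAs differ in level between fibrotic and control lungs.

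MiRNAs of this family are shared widely among vertebrates and silence messenger RNAs that pair with the seed, the bases near the 5′ end. They are best known from the immune system, where miR-181a tunes the sensitivity of the T cell receptor in developing thymocytes. In endothelium, miR-181b is known to restrain NF-κB signaling by lowering importin-α3, which carries NF-κB into the nucleus. Each hairpin also yields a 3p arm, usually the less abundant strand.

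All members carry the same seed and differ only downstream of it, which is why their sequences are shown in full. The mature sequences are those of RefSeq (GRCm38.p6) and equal the target sequences given for the array probes at every base. They are written 5′ to 3′ with bases 2 to 8, the seed, in capitals.
miR-181a-5p: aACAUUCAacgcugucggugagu
miR-181b-5p: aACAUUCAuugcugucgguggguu
miR-181c-5p: aACAUUCAaccugucggugagu
miR-181d-5p: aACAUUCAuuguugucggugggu

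Position 1 is the first base at the 5′ end. Against miR-181a-5p, whose base is written first, miR-181b-5p differs by A9U, C10U and A21G and is longer by 1 base at its 3′ end. The sequence of miR-181c-5p is that of miR-181a-5p with 1 base less, at position 11. With the base of miR-181b-5p first, miR-181d-5p differs by C12U and is shorter by 1 base. Thus the family holds 2 pairs of near-identical sequences, a with c and b with d, and a probe for one member can bind the other. How far that happened on these arrays was not tested. None of the 1959 miRNA probes outside the family had this seed at bases 2 to 8.

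The genes lie in 3 clusters. In GRCm38.p6, mature miR-181a-5p is encoded on the plus strand at chr1:137966468-137966490 (Mir181a-1) and at chr2:38852741-38852763 (Mir181a-2), next to miR-181b-5p at chr1:137966650-137966673 (Mir181b-1) and chr2:38853845-38853868 (Mir181b-2). The pair on chromosome 2 lies within the span of Nr6a1, a nuclear receptor gene, and of the long noncoding RNA gene Nr6a1os. On the minus strand of chromosome 8, miR-181c-5p lies at chr8:84178924-84178945 and miR-181d-5p at chr8:84178759-84178781. Since both copies of miR-181a-5p and of miR-181b-5p give the same mature sequence, the array cannot tell the copies apart. The 3p arms differ between copies and have probes of their own.

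Levels are given as log2 intensities, normexp corrected with an offset of 50, quantile normalized and averaged over the pair of spots that each probe has. Detection required a mean raw intensity above a limit set at 3 SD over the median of the 800 empty spots. Untreated WT mouse 3 (178 above the empty spots) and WT-BLM mouse 1 (136) had the highest limits, while those of the other 4 arrays were 24.0 to 54.4, so that dim members could pass less readily on these 2 arrays. A total of 275 probes were detected on at least 3 of the 6 arrays and were tested with limma. Lung miRNAs were present, with all 5 epithelial miRNAs of the miR-200 family and both endothelial arms of miR-126a among the tested probes, while of liver and brain miRNAs, miR-122-5p and miR-124-3p were detected on 1 array each and miR-9-5p on none. Muscle miRNAs were present as well. Of 4 listed for heart and skeletal muscle, miR-1a-3p was detected on all 6 arrays, and the summed authors' intensity of the 4 was 719 to 10850 in untreated and 1026 to 1696 in WT-BLM lungs. The highest sum was that of untreated WT mouse 2, where miR-1a-3p stood at 7773 and miR-206-3p at 1180. Without this mouse the log2 fold changes were 0.0018 for miR-181a-5p, -0.26 for miR-181b-5p and 0.30 for miR-181c-5p, none of which passed the test. In whole lung, fewer cells of a type and less miRNA per cell cannot be told apart.

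In every mouse, miR-181a-5p gave the brightest signal of the family, followed by miR-181b-5p, and both were brighter than miR-181c-5p and miR-181d-5p. On the 4 arrays on which miR-181c-5p was detected, it was brighter than miR-181d-5p, which was itself detected on 2 of these. On the other 2 arrays both were below the detection limit and have no order. This order was the same under quantile normalization, under each of 3 alternatives to it and in the authors' own normalized intensities. Probes differ in how brightly they bind, so this is an order of signals, not of amounts of miRNA. Among all 1963 probes, miR-181a-5p stood at positions 33 to 41 from the brightest and miR-181b-5p at 48 to 79. The log2 intensities of miR-181a-5p, from 11.36 to 11.90, did not overlap those of miR-181b-5p, from 9.78 to 10.93, and these did not overlap those of miR-181c-5p, from 7.23 to 8.52. The range of miR-181d-5p, from 6.34 to 8.27, overlapped that of miR-181c-5p, and both ranges include signals below the detection limit.

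**Figure D1:**
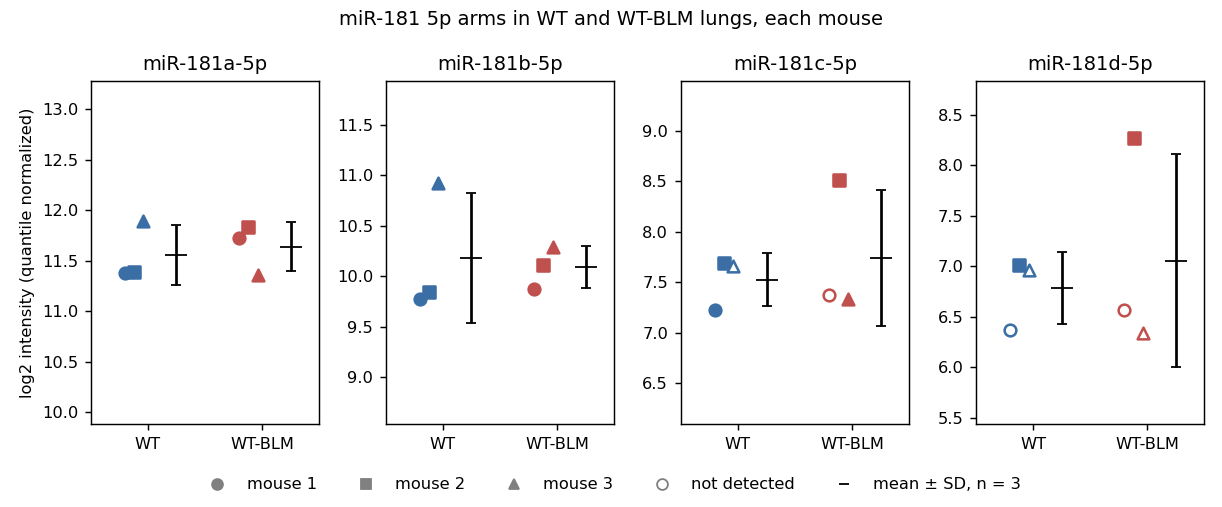
Log2 intensity of the 4 miR-181 5p arms in 3 untreated WT and 3 WT-BLM lungs, with a panel per member, all panels spanning the same number of log2 units, and with filled symbols for arrays on which the probe was detected. Crossbars give the mean and SD (n = 3). The groups overlap in every panel, and WT-BLM mouse 2 stands above the other 5 mice for miR-181c-5p (8.52) and miR-181d-5p (8.27).

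No member passed the test between WT-BLM and untreated lungs. Of the 4 members, 3 were bright enough to be tested, and 0 of these 3 had a Benjamini-Hochberg adjusted p under 0.05 in limma, as had 0% of all 275 tested probes. At an unadjusted p under 0.05 the members again numbered 0, against 1.82% of all tested probes, and 0 of the 3 had groups without overlap, against 4.73%. The fitted log2 fold changes were positive for miR-181a-5p and miR-181c-5p and negative for miR-181b-5p. Their median was 0.08 (-0.10 without WT-BLM mouse 2), beside a median of 0.04 over all 275 probes, for which the quartiles were -0.12 and 0.23.

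The brightest member, miR-181a-5p, which tunes T cell receptor signaling in the thymus, was detected in every mouse. Untreated WT mice 1, 2 and 3 had log2 intensities of 11.38, 11.39 and 11.90. WT-BLM mice 1, 2 and 3 had 11.72, 11.83 and 11.36. Both the highest and the next to lowest values belonged to untreated WT mice, so that the groups overlapped. Untreated lungs averaged 11.56 ± 0.29 (SD, n = 3) and WT-BLM lungs 11.64 ± 0.25. The direction of the difference rested on single mice, being -0.0046 without untreated WT mouse 1 and -0.014 without WT-BLM mouse 2, and it was 0.25 without untreated WT mouse 3 and 0.22 without WT-BLM mouse 3. In limma the log2 fold change of 0.08 with all mice had a standard error of 0.25 and an adjusted p of 1, with a 95% interval from -0.51 to 0.67, or from 0.703-fold to 1.60-fold on the linear scale. The exact two-sided permutation test gave p = 1, where 3 against 3 mice cannot give less than 0.10. This member varied little, since 69.5% of the tested probes had a larger SD within groups. The authors' normalized intensities averaged 2829 ± 493 without BLM and 2965 ± 726 with BLM (SD, n = 3).

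For miR-181b-5p, the member known for restraining NF-κB signaling in endothelium, log2 intensities of 9.78, 9.84 and 10.93 were measured without BLM. With BLM they were 9.88, 10.11 and 10.29. Every WT-BLM value lay between those of the untreated WT mice, whose spread was set by mouse 3. The means were 10.18 ± 0.65 and 10.09 ± 0.21 (SD, n = 3), and the log2 fold change was -0.09 (standard error 0.35, 95% interval from -0.90 to 0.72, adjusted p = 1 in limma). The direction of this change rested on single arrays. Without untreated WT mouse 3 it was 0.28, and without WT-BLM mouse 1 it was 0.02, while without normalization between arrays it was 0.09. In untreated WT mouse 1, its spots read 1203 and 524 above the empty spots. After background correction and normalization they differed by 1.09 on the log2 scale, against at most 0.26 on the other arrays. With that pair left out the log2 fold change was -0.29. The authors' normalized intensities without BLM were 820, 806 and 1677, with mouse 3 again apart. After BLM they were 872, 1012 and 1063.

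The probe for miR-181c-5p was detected in 2 of 3 lungs of each group. Without BLM its log2 intensities were 7.23, 7.69 and 7.66. With BLM they were 7.37, 8.52 and 7.34, so that mouse 2 was the highest of the 6 mice and the other two lay within the range of the untreated mice. The means were 7.53 ± 0.26 and 7.74 ± 0.67 (SD, n = 3), with a log2 fold change of 0.21 (standard error 0.36, 95% interval from -0.63 to 1.06, adjusted p = 1 in limma; exact two-sided permutation test, p = 0.8). Leaving out WT-BLM mouse 2 turned this change to -0.17. In the authors' normalized intensities miR-181c-5p stood at 75, 124 and 118 without BLM and at 103, 252 and 68 with it.

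**Figure D2:**
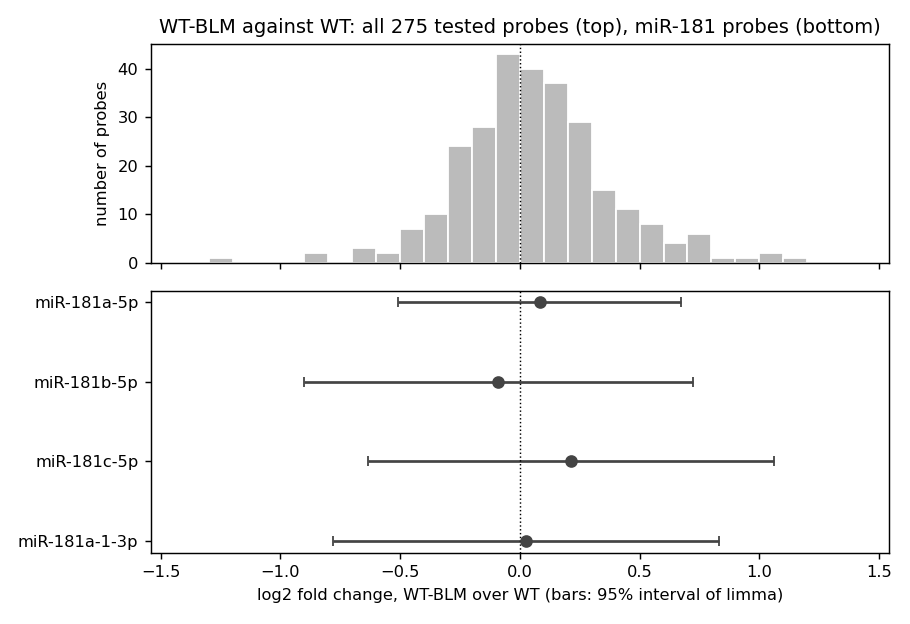
Log2 fold change of WT-BLM over untreated WT lungs, as the number of probes per bin for all 275 tested probes (top) and for the 4 tested probes of the miR-181 hairpins with their 95% intervals from limma (bottom). Each interval spans 0, and the values, from -0.09 for miR-181b-5p to 0.21 for miR-181c-5p, lie in the middle of the distribution of all probes.

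The dimmest member, miR-181d-5p, was detected only in untreated WT mouse 2 and WT-BLM mouse 2 and did not enter the test as reported. With detection limits set by a robust SD of the empty spots, it entered the test, with an unadjusted p of 0.62 in limma. Without BLM its log2 intensities were 6.37, 7.01 and 6.96, and with BLM they were 6.57, 8.27 and 6.34. WT-BLM mouse 2 was thus far above the others, while the signals of WT-BLM mice 1 and 3 were below the detection limits and are given no order. The means were 6.78 ± 0.36 and 7.06 ± 1.06 (SD, n = 3). Their difference was 0.27 with all mice and -0.33 without WT-BLM mouse 2. Since the probe was below the detection limit on 4 arrays, the sizes of these differences depend on the offset. Above the empty spots, WT-BLM mouse 1 read 33.6 against a limit of 136, and WT-BLM mouse 3 read 9.79 against 24.0. The sign of the value without WT-BLM mouse 2 therefore cannot be read as a direction. The authors' normalized intensities were 14, 48 and 45 without BLM, against 29, 202 and 8 with it.

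**Figure D3:**
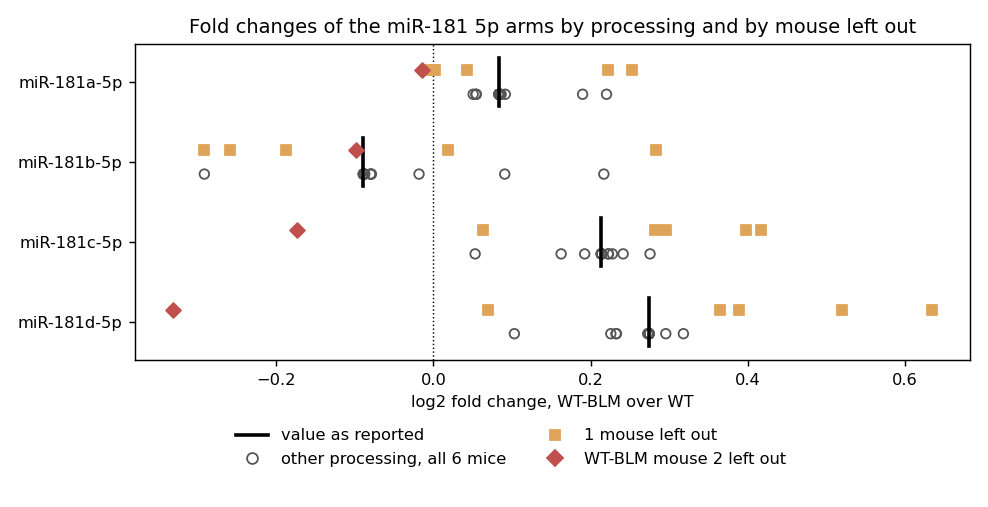
Log2 fold change of each miR-181 5p arm as reported (black bar), under other processing with all 6 mice (open circles) and with 1 mouse left out (filled symbols). For miR-181d-5p, which was too dim for the test, the values are differences of group means. Leaving out WT-BLM mouse 2 moved miR-181c-5p to -0.17 and miR-181d-5p to -0.33, each lower than any other value for that member.

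Whether the members changed unequally was tested on the within-mouse differences of log2 intensity for the 3 pairs of tested members. The change of miR-181a-5p exceeded that of miR-181b-5p by 0.17 (standard error 0.31). The change of miR-181a-5p minus that of miR-181c-5p was -0.13 (standard error 0.35), and that of miR-181b-5p minus miR-181c-5p was -0.30 (standard error 0.51). The adjusted p was 0.7 for all 3 pairs (exact two-sided permutation tests). With 3 against 3 mice the smallest p these tests allow is 0.10 before adjustment, so that they could not have passed 0.05. Each of the differences was smaller than its standard error.

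In normalized log2 intensity, WT-BLM mouse 2 exceeded the next highest mouse, untreated WT mouse 2, by 1.26 for miR-181d-5p and by 0.82 for miR-181c-5p, and both probes were detected in both of these mice. The products of the cluster on chromosome 8 were looked at more closely after the values had been seen, and they are given as a description of 1 mouse. The spots of miR-181d-5p read 316 and 304 above the empty spots in WT-BLM mouse 2, against 9.76 to 63.6 over the spots of the other 5 arrays. For miR-181c-5p they read 391 and 378, against 74.4 to 169. Both spots of each probe, which lie in columns 3 and 23 of the chip, thus gave the same result. The probes of the chromosome 8 cluster are neighbours on the chip, in rows 24 to 27 of both columns. Among the spots around those of the 4 members, the lower quartile on that array was 8.60 to 14.1 above the empty spots, against -9.78 to 6.89 on the other arrays. The part of chip position in these values was not tested.

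Before normalization, the 3p arms of the same hairpins were also brightest in this mouse. Their sequences are shown because they differ from the 5p arms in sequence and were read by probes of their own.
miR-181c-3p: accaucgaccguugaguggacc
miR-181d-3p: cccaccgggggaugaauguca

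The mean of the spots for miR-181c-3p was 98.7 above the empty spots in WT-BLM mouse 2 and 3.44 to 18.3 in the other 5 mice. For miR-181d-3p it was 51.5, against 0.40 to 20.6. Both 3p arms were detected in WT-BLM mouse 2 alone. Their signals in the other 5 mice were below the detection limits and have no order. With scaling to the 75th percentile, untreated WT mouse 3 was the highest mouse for both 3p arms. Under all 4 normalizations tried, quantile included, WT-BLM mouse 2 remained the highest mouse for miR-181c-5p and miR-181d-5p.

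**Figure D4:**
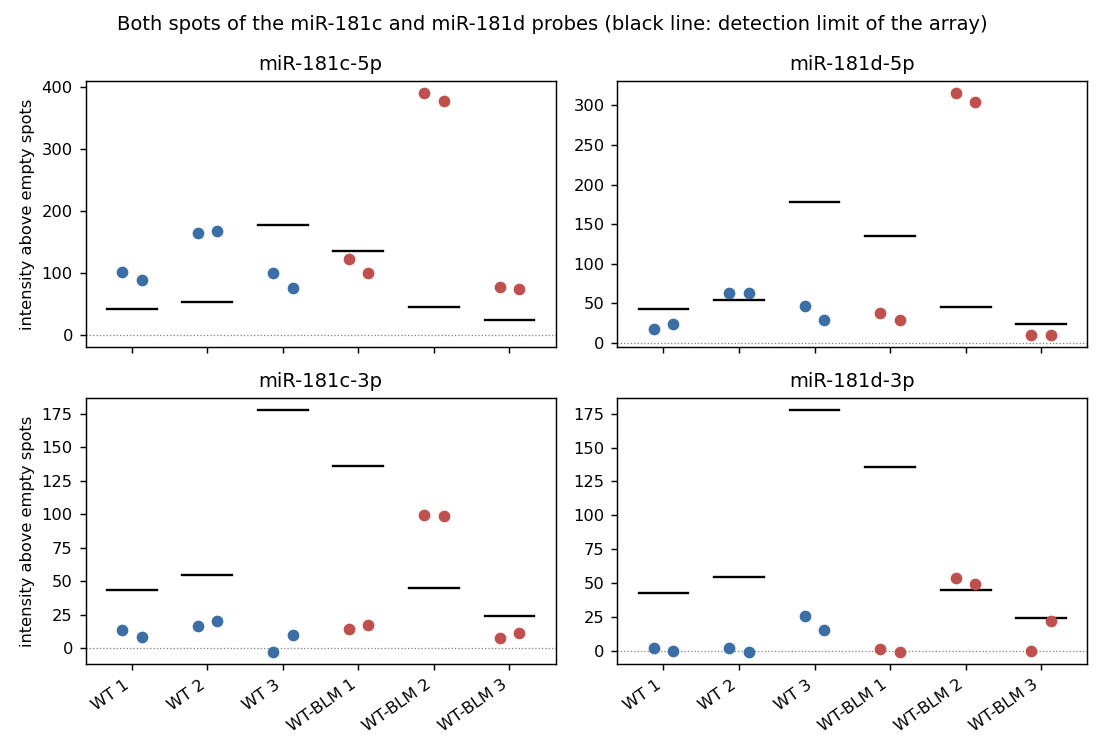
Intensity above the median of the empty spots, before normalization, for both spots of the miR-181c and miR-181d probes (5p arms above, 3p arms below) on each of the 6 arrays, with the detection limit of each array as a black line. The points of WT-BLM mouse 2 are the highest in every panel, and the limits of untreated WT mouse 3 and WT-BLM mouse 1 lie above all points of those mice.

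Across the 6 mice, the log2 intensities of miR-181c-5p and miR-181d-5p had a Pearson correlation of 0.995 and a Spearman correlation of 0.94. Without WT-BLM mouse 2, the Pearson correlation over the other 5 mice was 0.97. These values rest mostly on signals below the detection limit, since miR-181d-5p was detected on 2 of the 6 arrays and miR-181c-5p on 4. All pairs of probes share the same 6 arrays, and the chip position of this pair is close. In contrast, miR-181b-5p had a Pearson correlation of 0.15 with miR-181c-5p and of 0.11 with miR-181d-5p, which it resembles most in sequence. The correlation of miR-181a-5p with miR-181b-5p was 0.56, and with miR-181c-5p, from which it differs by 1 base, it was 0.57. These are descriptions over 6 arrays and were not tested.

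Of the 6 other arms of the family, only miR-181a-1-3p passed the detection filter. Log2 intensities of 6.72, 7.09 and 7.68 without BLM overlapped those of 6.84, 7.71 and 7.01 with BLM. In limma its log2 fold change of 0.03 had a standard error of 0.34 and an adjusted p of 1. Thus 0 of the 4 tested probes of these hairpins passed the test. WT-BLM mouse 2 was the highest mouse for 5 of the 6 other arms, while it was the highest for 19.3% of the 275 tested probes and for 16% of the 1688 probes that were too dim to be tested. This count depends on the normalization, being 0 of 6 with scaling to the 75th percentile, 4 of 6 with cyclic loess and 5 of 6 with none.

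The array of WT-BLM mouse 2 was also the brightest, the median tested probe reading 282 above the empty spots there and 129 to 259 elsewhere. Leukocyte miRNAs did not stand higher in this mouse. The summed authors' intensity of miR-142a-3p, miR-142a-5p, miR-150-5p, miR-223-3p and miR-155-5p, all marking blood-derived cells, was 3855 in WT-BLM mouse 2, the lowest of the 6 mice, with 4436 to 4887 in the untreated WT mice and up to 5025 in the WT-BLM mice. None of the 5 was itself lowest in that mouse. All 5 were tested, 0 passed, and their log2 fold changes lay between -0.02 and 0.21. The summed intensity of the endothelial arms of miR-126a was 16485 in WT-BLM mouse 2, within the range of 6144 to 19652 in the untreated WT mice. In contrast, the sum for miR-34b-5p, miR-34c-5p and miR-449a-5p, listed for ciliated cells, was highest in WT-BLM mouse 2, at 1709. It was 972 to 1417 in the untreated WT mice and at least 1470 in every WT-BLM mouse. Of these miRNAs only miR-34c-5p (1067) was itself highest in WT-BLM mouse 2. For miR-34b-5p that mouse read 584, below the 701 of WT-BLM mouse 1. For miR-449a-5p it read 58, within the 52 to 89 of the other mice. The sum of the smooth muscle and mesenchymal miRNAs miR-143-3p, miR-145a-5p, miR-199a-3p and miR-214-3p was lowest there, at 23117 against 24667 to 31433. The part of cell composition in the values of the miR-181 family was not tested.

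Outside the family, the tested probes whose log2 intensities were most like those of a member over the 6 arrays were named by the highest Pearson correlation among 271 probes. For miR-181a-5p these were miR-6236 (0.88) and let-7a-1-3p (0.81). For miR-181b-5p they were miR-221-5p (0.98) and miR-425-5p (0.95), and for miR-181c-5p they were miR-24-2-5p (0.94) and miR-1839-5p (0.93). With 6 arrays and 271 probes searched, such values are a description only. No probe had a correlation above 0.9 with miR-181a-5p, against 6 with miR-181b-5p and 3 with miR-181c-5p.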

How the data were processed

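Lung RNA of 3 untreated WT and 3 WT-BLM mice was measured on 6 one-dye miRNA arrays of 5022 spots, and samples were grouped by the sample titles. Deposited for every array were the median intensity per spot, not yet background subtracted, and its spread within the spot. A series table holds the authors' normalized intensities on a linear scale as whole numbers. How that table was normalized is not given in the sources used here. Over the 116 probes detected on all arrays, its log2 values correlated with those computed here at 0.974 to 0.996 per array.

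The software was R 4.3.3 and limma 3.58.1. Normexp (offset 50) was fitted on all spots, 1096 control spots were removed, log2 values of miRNA spots were quantile normalized, and the 2 spots of a probe averaged. Probes detected on at least 3 arrays (275 of 1963) were fitted with lmFit and eBayes and adjusted by Benjamini-Hochberg. The offset bears mostly on the values of dim probes. Groups of 3 mice limit the precision. The steps were also run on simulated data with known changes, and the outcome is not given here. The simulated spot noise followed a robust SD of the empty spots, whereas the detection limits of the arrays used the plain SD.

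The miRNAs named are the 4 members, the other arms of their hairpins, a list of cell type markers and the 2 probes most correlated with each tested member. Members and lists were chosen with earlier results of these data known. All 5p and 3p sequences of the family were found in RefSeq. In all, 21 alternatives were run, 6 of which left out 1 mouse each.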

Additional observations from a re-analysis of the deposited data

Results flagged for a closer look

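The 6 probes of the family that were too dim for the comparison each gave a signal in WT-BLM mouse 2 above that of every untreated WT mouse, and above the detection limit of that array. How many dim probes outside the family did the same was not counted, so this is not shown to be particular to the family. These signals are intensities above the empty spots before normalization, and the array of WT-BLM mouse 2 was the brightest of the 6 over the tested probes. The value was 310 for miR-181d-5p, where the highest untreated WT mouse read 63.2. It was 98.7 for miR-181c-3p (highest untreated WT mouse, 18.3) and 51.5 for miR-181d-3p (20.6). It was 53.8 for miR-181b-1-3p (23.1) and 46.3 for miR-181b-2-3p (6.04). For miR-181a-2-3p the value of 87.2 was close to the 80.3 of untreated WT mouse 3, and after quantile normalization that mouse was the higher one. With scaling to the 75th percentile, untreated WT mouse 3 was the highest mouse for all 5 of these 3p arms, and WT-BLM mouse 2 was the highest for miR-181d-5p. By another rule, after quantile normalization, WT-BLM mouse 2 was the highest of the 6 mice for 16% of the 1688 dim probes.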

How the results depend on the processing

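Under the 21 alternatives, no tested member had an adjusted p under 0.05, and 11 of 103 values, those of the family median included, changed sign. For miR-181b-5p, at -0.09, the value was 0.091 without normalization between arrays and 0.22 with array weights. The cause was not tested. With 1 mouse omitted at a time, the range was -0.014 to 0.25 for miR-181a-5p, with negative values without untreated WT mouse 1 (-0.0046) or WT-BLM mouse 2. For miR-181b-5p the range was -0.29 to 0.28, with positive values without untreated WT mouse 3 or WT-BLM mouse 1 (0.019). It was -0.17 to 0.42 for miR-181c-5p, negative only without WT-BLM mouse 2, and -0.33 to 0.64 for miR-181d-5p, negative only without WT-BLM mouse 2. With all mice kept, miR-181a-5p lay between 0.051 and 0.22, miR-181c-5p between 0.053 and 0.28, and miR-181d-5p between 0.10 and 0.32. The family median, 0.08 as reported, was -0.0029 to 0.22 with all mice, the lowest over the members detected on all 6 arrays. With 1 mouse omitted it was -0.10 to 0.28, negative without untreated WT mouse 1 or WT-BLM mouse 2 and highest without untreated WT mouse 3. The median over all 275 probes was 0.04 as reported and -0.11 with scaling to the 75th percentile.

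The labels state no pairing of mice with the same number. For such mice, deviations from the group means correlated at 0.16, 0.03 and 0.07. Mice with different numbers were not compared, so whether the number marks a pairing was not tested. The replicate block left the log2 fold changes at 0.08, -0.09 and 0.21 and changed no call. Of the probes detected on all 6 arrays, only miR-181a-5p and miR-181b-5p are members. The files name no slide or scan, so that a block by slide or scan was not run. Probe signals near the empty spots limit what can be said of miR-181d-5p and of 5 of the 3p arms.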
